A study of Mus musculus with 11 samples.

Results

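The growth hormone and insulin-like growth factor (IGF) binding axis of mouse liver was followed through 9 genes: the receptors Ghr and Prlr, the feedback gene Socs2, the ligand Igf1, the acid-labile subunit Igfals, and the IGF binding proteins Igfbp1, Igfbp2, Igfbp3 and Igfbp4. The genes were listed by name, and all 9 were among the 16702 genes that could be tested, out of 27962 gene names on the array. RNA of normal mouse liver was compared at embryonic day 14 (E14, 3 arrays), embryonic day 18 (E18, 3 arrays), postnatal day 5 (P5, replicates 2 and 3) and postnatal day 56 (P56, 3 arrays). On each array the liver RNA carried the dye Cy5 and a commercial RNA of normal adult mouse liver, the same reference throughout, carried Cy3. A value of 0 on the log2 scale is the level of that adult reference, relative to the trend of all spots on the array. Levels above or below the reference therefore depend on the normalization. The labels call the E14 cells hepatoblasts, the E18 cells immature hepatocytes and the postnatal cells hepatocytes, yet name liver as the tissue, and the methods speak of both whole livers and cells isolated from fetal livers. It is thus not settled whether the fetal RNA came from isolated cells, and sex is not given for these arrays in the sources used here. A strain, C57BL/6, is named by the methods for the isolated fetal cells alone. All arrays are of untreated normal tissue, described as biological replicates.

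Growth hormone from the pituitary binds its receptor on the hepatocyte and activates JAK2 and STAT5, which switch on Igf1, Igfals and the feedback inhibitor Socs2. The liver is the main source of circulating IGF-I after birth, and most of it travels bound to IGFBP-3 and the acid-labile subunit, while IGFBP-1 and IGFBP-2 are smaller carriers that respond to insulin, fasting and stage of life. Before birth growth rests largely on IGF-II, and the liver gains growth hormone receptors late.

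The probes through which these genes were read are 60 bases long, and some probes of Igf1, Ghr, Igfbp2 and Igfals are shown here as the array files give them, with no base in capitals since no motif was searched in them. Those of Igfbp2 and Igfals and receptor probe 1 of Ghr gave the main values of these genes, while receptor probe 2 and the Igf1 probe shown are further probes whose values are given separately. The array files place them on mm7, where exon annotation was not used here. The Igf1 probe lies at chr10:87471884-87471943 on the plus strand. The Ghr probe named receptor probe 1 lies at chr15:3153846-3153905 on the minus strand, and receptor probe 2 is aligned over chr15:3159367-3166819 on the minus strand, a span of 7453 bases that holds an intron. The Igfbp2 probe lies at chr1:73093964-73094023 and the Igfals probe at chr17:23064462-23064521, both on the plus strand.
Igf1: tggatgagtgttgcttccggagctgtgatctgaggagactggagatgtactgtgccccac
Ghr, receptor probe 1: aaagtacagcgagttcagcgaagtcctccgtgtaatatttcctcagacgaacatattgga
Ghr, receptor probe 2: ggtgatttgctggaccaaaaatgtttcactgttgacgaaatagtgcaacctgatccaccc
Igfbp2: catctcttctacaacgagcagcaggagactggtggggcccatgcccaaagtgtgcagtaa
Igfals: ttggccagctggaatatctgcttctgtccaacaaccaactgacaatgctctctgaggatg

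The 9 genes had 20 probes on 29 spots, and 19 of these probes passed the filter on dim signal, which asked for a Cy5 spot clearly brighter than its surroundings on every array of some stage. The brightest probe stands for each gene below. A call means an adjusted p under 0.05 from limma over all 16702 genes. Arrays held 16790 to 25718 spots well above background, with the fewest on P56 replicate 2. The lowest correlation of log ratios within a stage was that of P56 replicates 1 and 2 (r = 0.826, across probes). Replicate 3 of that stage correlated at 0.89 with replicate 1 and at 0.934 with replicate 2. By the scan times in their headers the arrays fell into 4 scans, of which the scan of E14 also held E18 replicate 1, and the scan of P56 also held P5 replicate 3. No scan linked the embryonic to the postnatal arrays, so that in P5 against E18 and in P56 against E14 scan and stage cannot be told apart.

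Markers of other cells moved with the stages. The mean log2 ratio over 15 mature hepatocyte markers was -3.77 at E14 (arrays from -3.83 to -3.70), -1.29 at E18, -0.48 at P5 and -0.18 at P56 (from -0.52 to 0.12). Over 9 hepatoblast markers it was 1.67, 2.53, 2.21 and -0.32, and over the 13 erythroid markers tested of 14 listed it was 3.43, 3.14, 2.55 and -0.029, in the same order. Over 12 macrophage markers it was -2.80, -1.39, -1.08 and -1.90, over 7 biliary markers -0.57, 0.40, 0.14 and -0.39, and over 11 neutrophil and B cell precursor markers -0.11, 2.07, 1.13 and -0.88. Among single markers, Afp, the fetal albumin, stood at 6.60 at E14 and 0.93 at P56. In such bulk RNA, fewer cells of a type and less RNA per cell cannot be told apart, and the part of cell composition in the results below was not tested.

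Calls among the 9 genes can be read beside those among all genes. For E18 against E14 all 9 were called, 8 higher and 1 lower, where 47.3% of all genes were called, 24.6% higher and 22.8% lower. The median of the 9 log2 fold changes was 0.96, against -0.013 over all genes. For P5 against E18, 3 of 9 were called (Igf1 and Igfbp2 higher, Igfbp3 lower), where 13.7% of all genes were, 7.32% higher and 6.4% lower, and the medians were 0.27 and 4e-04. For P56 against P5, 5 were called higher (Ghr, Prlr, Igf1, Igfals, Igfbp3) and 3 lower (Socs2, Igfbp1, Igfbp2), with 45.6% of all genes called (20.9% higher, 24.7% lower) and medians of 0.53 and -0.021. For P56 against E14, 7 were called higher and 1 lower, with 70.9% of all genes called (36.1% higher, 34.8% lower) and medians of 1.45 and 0.042. When arrays were scaled to a common spread, 1 member was called for E18 against E14 (19.3% of all genes), 0 for P5 against E18 (2.27%) and 3 for P56 against E14 (53.7%). With the scan as a block, 6 members were called for E18 against E14 (31.9% of all genes), without Igf1, Igfbp3 and Igfals, and 5 for P56 against P5 (27.9%).

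Differences taken within a scan ran the same way before birth for the 8 genes whose spots were in range. Igfbp1, saturated at E18 and P5, has no such difference. E18 replicate 1 minus the mean of E14 was 1.39 for Ghr, 0.81 for Prlr, 2.34 for Socs2, 0.37 for Igf1, 0.40 for Igfals, 3.36 for Igfbp2, -0.40 for Igfbp3 and 0.87 for Igfbp4. The mean of P56 minus P5 replicate 3 was 2.19 for Ghr, 0.67 for Prlr, -0.89 for Socs2, 2.74 for Igf1, 0.52 for Igfals, -3.997 for Igfbp2, 0.54 for Igfbp3 and 0.019 for Igfbp4. Only Igfbp4, which was not called between P5 and P56, changed sign there.

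Ghr, the growth hormone receptor, climbed through the course in large steps before birth and after P5. Its log2 ratio was -3.31, -3.32 and -3.38 on the E14 arrays, -1.95, -1.90 and -1.86 at E18, -1.41 and -1.76 at P5, and 0.41, 0.43 and 0.43 at P56. No stage overlapped with another, and the P56 arrays lay close together (SD 0.00907, n = 3). From E14 to E18 Ghr rose 2.70-fold (log2 1.43, SE 0.0978, adjusted p = 3.3e-07), and from P5 to P56 4.03-fold (log2 2.01, SE 0.109, adjusted p = 8.2e-08). Between E18 and P5 the difference was 0.32 (95% interval 0.082 to 0.56, adjusted p = 0.074), which did not pass the threshold. Without P5 replicate 3 this difference was 0.50, a value that rests on the only other P5 array. Over the whole course the receptor ended 13.6-fold higher at P56 than at E14, a comparison of different scans. Ghr is also among the genes that the study listed for the RXR-alpha pathway.

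Other Ghr probes gave the same order for the ends of the course. Receptor probe 2, which reads across an intron, was 17.4-fold higher at P56 than at E14, and a further bright probe 10.1-fold. A probe for the transcript AK053579 changed less (3.25-fold). The faintest Ghr probe, for AK034547, was well above background on 5 of 11 arrays and on none at E14, and was at least 1.34-fold brighter at P56 than at E14. For P5 against E18 the other probes did not share 1 direction, and none was called. Receptor probe 2 differed by 0.44 (adjusted p = 0.055) and the further bright probe by 0.040 (adjusted p = 0.91). The probes for AK053579 and AK034547 differed by -0.26 and -0.15.

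Prlr, the prolactin receptor, a close relative of Ghr that uses the same JAK2 and STAT5 route, also rose before birth and again after P5. Its values were -1.65, -2.06 and -1.86 at E14, -1.05, -0.83 and -0.83 at E18, -0.99 and -0.63 at P5, and -0.38, 0.06 and 0.46 at P56. E18 and P5 overlapped, while E14 lay below and P56 above all other arrays. The rise was 1.94-fold from E14 to E18 (log2 0.95, SE 0.191, adjusted p = 0.0015) and 1.81-fold from P5 to P56 (log2 0.85, SE 0.214, adjusted p = 0.0066). The latter was lost without P5 replicate 2 (log2 0.67, adjusted p = 0.078) and with the scan as a block (adjusted p = 0.093), and turned to -0.046 when arrays were only centred on their median.

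The probes of Prlr differed in the stage of their highest mean. A probe for the transcript BC096586 stood at -1.43 at E14, 0.078 at E18, -0.35 at P5 and -0.26 at P56 (means), highest at E18, where the brightest Prlr probe was highest at P56. Its differences of P5 and P56 from E18 did not pass the threshold (adjusted p = 0.21 and 0.14). Its rise from E14 to E18 was 2.85-fold (adjusted p = 4.3e-05), and its difference between P56 and P5 was 0.097 (adjusted p = 0.74). A dim probe for AK083198 was not well above background on any E14 or P56 array, so its stages were not ranked. Prlr is known to be made in long and short forms, and which forms each probe reads was not determined here.

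**Figure D1:**
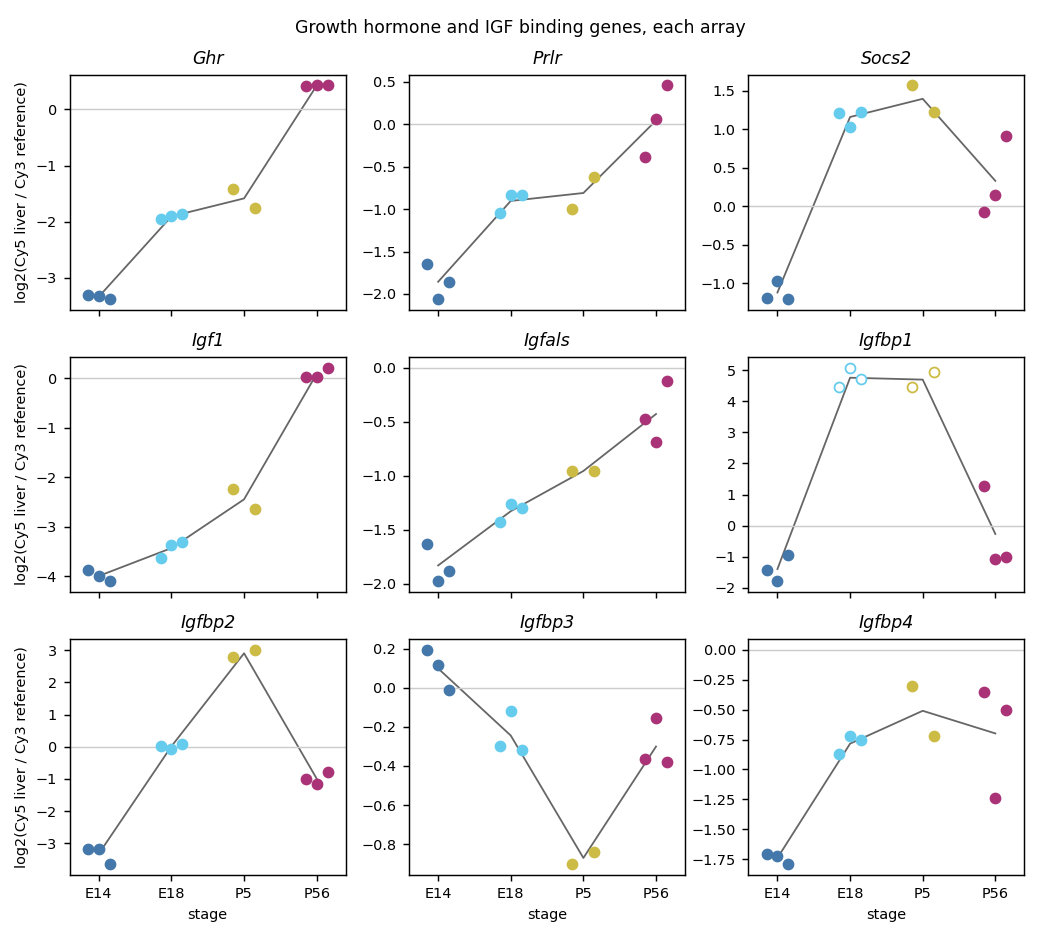
Log2 ratio of liver RNA (Cy5) to the adult liver reference (Cy3) for the 9 genes on each of the 11 arrays, by stage. Filled points are single arrays, open points are arrays on which the Cy5 spot was saturated, lines join stage means, and the y axes differ between panels; Ghr and Igf1 reach 0 only at P56, while Igfbp1, Igfbp2 and Socs2 stand highest at E18 or P5.

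Socs2, an inhibitor of growth hormone signalling that the hormone itself induces, was already above the adult reference at E18. It read -1.19, -0.97 and -1.21 at E14, then 1.22, 1.03 and 1.23 at E18 and 1.57 and 1.22 at P5, and came back to -0.072, 0.14 and 0.91 at P56. The P56 arrays lay between those of E14 and those of the perinatal stages, with no overlap on either side. The rise before birth was 4.85-fold (log2 2.28, SE 0.208, adjusted p = 3.7e-06), and Socs2 was the only member still called for E18 against E14 when arrays were scaled to a common spread. E18 and P5 differed by 0.24 (95% interval -0.27 to 0.74, adjusted p = 0.55). From P5 to P56 it fell by 1.07 on the log2 scale (SE 0.233, adjusted p = 0.0029), a fall that was -0.89 with the scan as a block (adjusted p = 0.054) and -0.27 in the authors' gene table (adjusted p = 0.79). Ghr at these same 2 stages ran the other way, higher at P56 than at P5. A faint Socs2 probe, for AK033206, was well above background on 2 of 11 arrays and did not enter the fit.

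Igf1, the ligand, rose at every step and most after P5. Its values were -3.88, -3.996 and -4.10 at E14, -3.62, -3.37 and -3.30 at E18, -2.24 and -2.65 at P5, and 0.025, 0.031 and 0.22 at P56. Stages did not overlap, and only P56 reached the adult reference. Igf1 was 1.48-fold higher at E18 than at E14 (log2 0.56, SE 0.129, adjusted p = 0.0035), 1.98-fold higher at P5 than at E18 (log2 0.98, SE 0.144, adjusted p = 0.0012) and 5.80-fold higher at P56 than at P5 (log2 2.54, SE 0.144, adjusted p = 1.1e-07). The smallest of these steps, before birth, missed the threshold under 5 of 19 alternatives that recomputed the values or the fit, the scan as a block among them (log2 0.37, adjusted p = 0.063). The step from E18 to P5 turned to -1.80 (adjusted p = 0.35) when arrays were scaled to a common spread. The whole rise from E14 to P56 was 17.0-fold, and it was called under each of the 18 such alternatives that could be fitted to it.

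The Igf1 value is the mean of a probe printed on 10 spots, of which 7 to 10 were used per array, and the spots of 1 array differed by an SD of 0.0563 to 0.136. On the E14 arrays the raw Cy5 signal of this probe was 706 to 938 against 10100 to 13800 in Cy3. The single-spot Igf1 probe whose sequence is given above showed smaller ratios, -2.62, -2.01, -1.38 and 0.23 (stage means), and a rise of 2.85 on the log2 scale from E14 to P56, with every step called. A dim Igf1 probe for AK050118, not well above background on any E14 array, was at least 2.60-fold brighter at P56. The probes gave 1 direction over the whole course and not 1 size.

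Igfals, which holds IGF-I and IGFBP-3 in the large circulating complex, rose slowly and stayed below the adult reference. It read -1.63, -1.98 and -1.88 at E14, -1.43, -1.26 and -1.30 at E18, -0.96 and -0.95 at P5, and -0.47, -0.69 and -0.13 at P56. Each stage lay wholly above the one before. The gain was 1.42-fold before birth (log2 0.50, SE 0.140, adjusted p = 0.011), 1.29-fold from E18 to P5 (adjusted p = 0.14) and 1.44-fold from P5 to P56 (log2 0.53, SE 0.156, adjusted p = 0.016), or 2.64-fold in all. The call before birth was lost without E14 replicate 2 (log2 0.43, adjusted p = 0.052) and with the scan as a block (log2 0.40, adjusted p = 0.17). The call after P5 was lost without P5 replicate 2 (log2 0.52, adjusted p = 0.075), without P56 replicate 3 (log2 0.37, adjusted p = 0.053) and with the scan as a block (log2 0.52, adjusted p = 0.089). The step after P5 turned to -0.37 under median centring alone. The median of all genes for this step was -0.47 under that setting, so that Igfals stood 0.10 above that median.

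**Figure D2:**
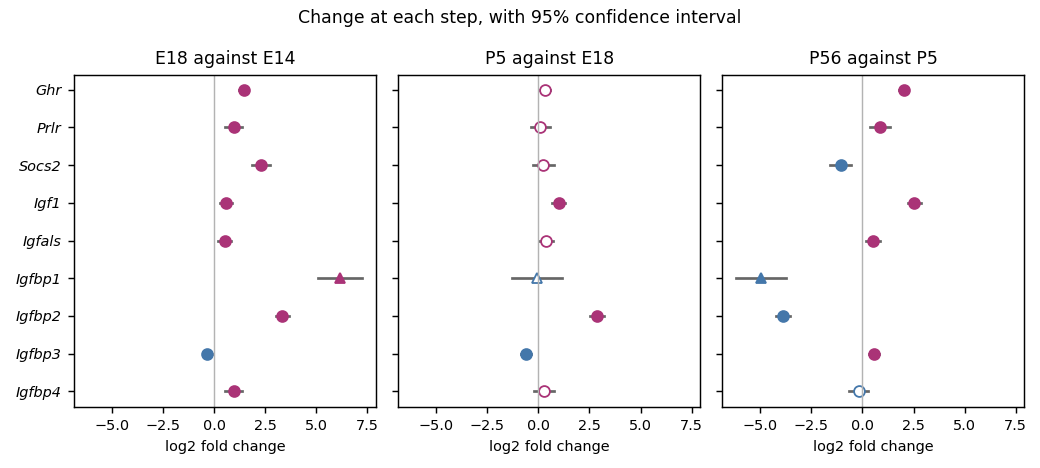
Log2 fold change of the 9 genes at each of the 3 steps, with the 95% confidence interval of the limma fit over all 11 arrays. Filled symbols passed an adjusted p of 0.05, purple is higher and blue lower at the later stage, and the triangle marks Igfbp1, whose Cy5 spot was saturated at E18 and P5; Igf1 and Igfbp2 are the only filled symbols to the right of 0 in the middle panel.

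Igfbp1, the binding protein that insulin represses and fasting raises, gave the largest ratios of the 9 genes at E18 and P5. Its values were -1.44, -1.80 and -0.95 at E14, 4.47, 5.09 and 4.73 at E18, 4.47 and 4.94 at P5, and 1.28, -1.09 and -1.01 at P56. Its spot was saturated in Cy5 on all 5 perinatal arrays, so only bounds can be given. Igfbp1 was at least 16.5-fold brighter at E18 than at E14 and at least 8.28-fold brighter at P5 than at P56, from Cy5 after loess and quantile adjustment of brightness. The adjusted p-values of the limma fit for these comparisons (1.4e-06 and 2.7e-05) belong to log ratios that include the saturated spots. They do not test the bounds. The measured Cy5 means behind these bounds were 11.93 at E14, 15.97 at E18, 15.65 at P5 and 12.60 at P56 on the log2 scale. Between E18 and P5, both saturated, no fold can be given.

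The Cy3 signal of this probe was 1890 to 3460 on the saturated arrays and 6910 to 10800 on the others, although the reference RNA was the same. At P56 the arrays were far apart, with replicate 1 at a raw Cy5 signal of 17400 and replicates 2 and 3 at 1740 and 3290. P56 and E14 overlapped, and their difference of 1.13 did not pass the threshold (adjusted p = 0.061). It did without P56 replicate 2 (log2 1.54, adjusted p = 0.02) or replicate 3 (log2 1.495, adjusted p = 0.03).

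**Figure D3:**
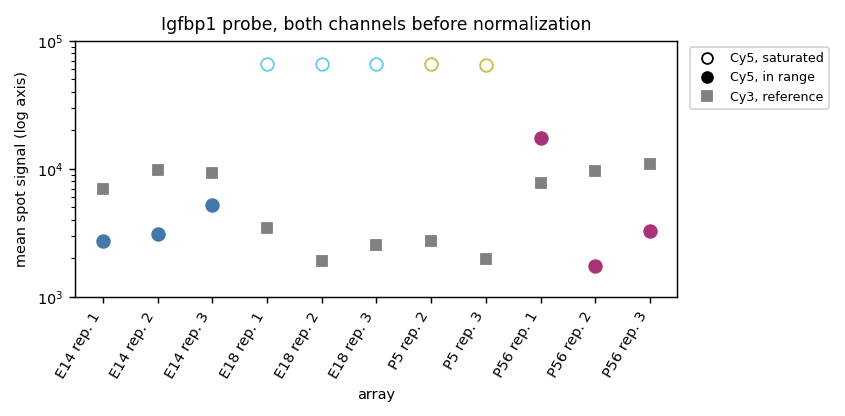
Mean spot signal of the Igfbp1 probe before normalization on each array (log axis), with liver RNA in Cy5 as circles, open where saturated, and the adult reference in Cy3 as grey squares. Cy5 is at its ceiling on the 5 arrays of E18 and P5, where Cy3 is 1890 to 3460, and P56 replicate 1 stands above the other P56 arrays.

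Igfbp2, the main IGF carrier of fetal serum, changed more than any other member whose spot stayed in range. It read -3.17, -3.16 and -3.64 at E14, 0.035, -0.068 and 0.074 at E18, 2.80 and 3.01 at P5, and -1.01, -1.17 and -0.79 at P56. Its stages stood clear of each other, in the order E14, P56, E18, P5. Igfbp2 rose 10.1-fold before birth (log2 3.33, SE 0.142, adjusted p = 1e-08) and 7.41-fold more by P5 (log2 2.89, SE 0.159, adjusted p = 1.4e-06), then fell by 3.89 on the log2 scale to P56 (SE 0.159, adjusted p = 1.1e-08). P5 was thus 74.8-fold above E14. Scaling to a common spread ended the calls before birth (log2 2.61, adjusted p = 0.18) and between E18 and P5 (log2 5.42, adjusted p = 0.081), with the direction kept in both, and not the fall after P5.

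Igfbp3, the partner of IGF-I and the acid-labile subunit in serum and a product mainly of the non-parenchymal cells of the liver, was the only member that fell before birth. It read 0.19, 0.11 and -0.012 at E14, -0.30, -0.12 and -0.32 at E18, -0.90 and -0.84 at P5, and -0.37, -0.16 and -0.38 at P56. Both P5 arrays lay below all others, and E18 overlapped with P56. Igfbp3 fell by 0.34 from E14 to E18 (SE 0.101, adjusted p = 0.014) and by 0.63 from E18 to P5 (SE 0.112, adjusted p = 0.0041), and rose 1.48-fold from P5 to P56 (adjusted p = 0.0015). The fall before birth was lost without E14 replicate 1 or E18 replicate 3 (adjusted p = 0.06 in each) and with the scan as a block (log2 -0.40, adjusted p = 0.064). A dimmer Igfbp3 probe, well above background on 7 arrays, passed the threshold at none of the steps (adjusted p = 0.18, 0.17 and 0.43). It ran opposite to the brightest probe for P5 against E18 (0.26) and for P56 against E14 (0.198, adjusted p = 0.1). The brightest probe moved by -0.40 in the latter comparison (adjusted p = 0.0037). With the brightest probe, median centring turned the rise after P5 to -0.33. Over the same arrays the mean over 11 endothelial markers was -0.73, 0.045, 0.27 and -0.41, and over 12 stellate and fibroblast markers 0.27, 0.27, 0.16 and -0.86. Their part in the Igfbp3 values was not tested.

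Igfbp4, a binding protein that restrains IGF action, rose before birth on its brightest probe. It read -1.71, -1.72 and -1.79 at E14, -0.87, -0.72 and -0.76 at E18, -0.30 and -0.72 at P5, and -0.35, -1.24 and -0.50 at P56. E14 lay below every later array, and P56 overlapped with both E18 and P5. The rise was 1.94-fold from E14 to E18 (log2 0.96, SE 0.193, adjusted p = 0.0016). Later differences were 0.27 for P5 against E18 (95% interval -0.20 to 0.75) and -0.19 for P56 against P5 (95% interval -0.66 to 0.28), and neither passed the threshold. Under median centring alone the latter was -0.99 and did pass (adjusted p = 0.021), where the median of all genes was -0.47. The rise from E14 to P56 lost its call in that setting (log2 0.28, adjusted p = 0.43). A dimmer Igfbp4 probe put more of the rise after birth, with a difference of 0.63 for P5 against E18 (adjusted p = 0.009). On the brighter probe P56 replicate 2 stood lowest of its stage, at -1.24.

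**Figure D4:**
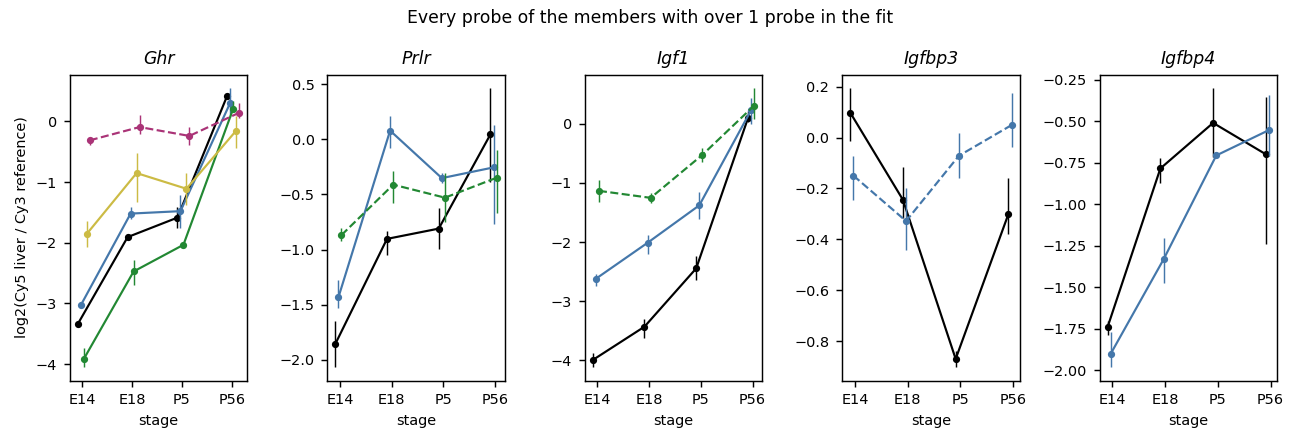
Stage means of the log2 ratio for every probe of the 5 genes with over 1 probe in the fit, with vertical lines from the lowest to the highest array. Black is the brightest probe, and dashed lines are probes that were dim in Cy5 on some arrays. Every Ghr and Igf1 line is highest at P56, the black and blue Prlr lines cross, and of the Igfbp3 lines only the black dips at P5.

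Genes whose 11-array profile was closest to a member, by the root mean square difference after centring each on its own mean, included 2200001I15Rik (0.234) and Tdo2 (0.289) for Igf1, among 16439 genes with no missing value. For Ghr they were Mgst1 (0.191), C8g (0.199) and AK077046 (0.202), and for Socs2 Prodh2 (0.200), C3 (0.207) and Spp2 (0.240). Igfbp2 came nearest to Agt (0.606), Agxt (0.633) and AK149472 (0.796), and Igfbp1 to Chi3l3 (0.834), Tff3 (0.850) and Rsad2 (0.863), so that both lay farther from any other gene than the other members did. Prlr came nearest to H2-T22 (0.136), Pbef1 (0.163) and Hdhd3 (0.163), Igfals lay near Acat3 (0.132) and NAP028770-1 (0.134), Igfbp4 came nearest to 9030607L17Rik (0.138), Hsdl2 (0.138) and AK040677 (0.148), and Igfbp3 to NAP059398-1 (0.112), Mitd1 (0.119) and Lsm6 (0.130). Profiles with smaller changes can lie close to more genes. The last 4 members changed less over the course than Igf1 or Ghr, so their small distances say less.

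Of 14 genes that signal downstream of both receptors, all could be tested. At E18, 8 were called higher and 1 lower than at E14 (median log2 0.32), where 24.6% of all genes were called higher and 22.8% lower. At P5, 1 was lower than at E18 (6.4% of all genes), and at P56, 1 was higher and 8 lower than at P5 (median -0.38), where 20.9% and 24.7% of all genes were. Stat3 rose by 1.502 before birth (adjusted p = 1.3e-06) and fell by 1.05 after P5 (adjusted p = 8e-05). Jak2, the kinase bound to the receptor, fell by 0.89 from P5 to P56 (adjusted p = 7.9e-05), at the step where Ghr rose, and the phosphatase gene Ptpn11 fell by 0.85 (adjusted p = 0.00037).
Cish, a relative of Socs2 that STAT5 also induces, rose by 1.21 before birth (adjusted p = 6.6e-06) and was 1.81 higher at P56 than at E14 (adjusted p = 6.4e-08). Its arrays read 0.14, 0.15 and 0.026 at E18, 0.16 and 0.19 at P5, and 0.61, 0.97 and 0.53 at P56, so that unlike Socs2 it was highest at P56. Stat5b, whose product carries most of the hormone's signal in liver, rose by 0.67 before birth (adjusted p = 0.0014) and fell by 0.47 after P5 (adjusted p = 0.022), with a difference of 0.015 between P56 and E14 (adjusted p = 0.93).

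Among 12 other genes of IGF action tested of 16 listed, the fetal ligand Igf2 fell at the step where Igf1 rose most. From P5 to P56, 1 was called higher and 6 lower (median log2 -0.40), where 20.9% and 24.7% of all genes were. Igf2, the fetal ligand, stood at 3.62, 3.76 and 3.74 at E14, 4.46, 4.83 and 4.66 at E18, 3.59 and 4.38 at P5, and 0.51, -0.0047 and -0.11 at P56, and fell by 3.85 after P5 (SE 0.225, adjusted p = 1.4e-07). Grb10, an adaptor that restrains insulin and IGF receptors, rose by 1.55 before birth (adjusted p = 0.00082), then fell by 1.56 by P5 (adjusted p = 0.0081) and by 4.67 by P56 (adjusted p = 4.9e-07). Igfbp5 fell by 1.28 after P5 (adjusted p = 0.014) and differed by -2.73 between P56 and E14 (adjusted p = 1.2e-05). Igfbp7 went the other way, with a rise of 1.35 before birth (adjusted p = 2.6e-06) and 0.95 by P5 (adjusted p = 0.00081). Grb14, a further adaptor, rose by 1.79 before birth (adjusted p = 3e-06), and Igf2r, which clears IGF-II, fell by 1.05 from E18 to P5 (adjusted p = 0.00019). At E18, 8 of these 12 genes were called higher and 2 lower than at E14, beside 24.6% and 22.8% of all genes. At P5, 2 were higher and 2 lower than at E18, beside 7.32% and 6.4%.

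Genes known to depend on growth hormone in liver were higher at P56 than at E14 in nearly every case, some with a rise before birth and some after P5. Of 17 tested of 20 listed, 9 were called higher at E18 than at E14 (median log2 1.12) and 4 higher at P5 than at E18, with none called lower in either comparison, where 24.6% and 7.32% of all genes were called higher. At P56, 9 were higher and 2 lower than at P5 (median 0.97), where 20.9% and 24.7% of all genes were. From E14 to P56, 16 of 17 were called higher (median 2.41, against 0.042 over all genes), where 36.1% of all genes were. The list was not divided by whether the hormone raises or lowers a gene, so the counts are not a measure of its action. Mup1, a major urinary protein, read -4.35 at P5 and 3.84, 2.38 and 2.94 at P56, a rise of 7.40 on the log2 scale (adjusted p = 2e-05) that rests on 1 P5 array, since the other had no value, so that the spread behind this p comes from the other stages alone. The oxysterol hydroxylase Cyp7b1 rose by 3.16 (adjusted p = 0.00021) and the steroid dehydrogenase Hsd3b5 by 2.69 (adjusted p = 0.00087) at this step. Hao3, the array's name for Hao2, rose by 3.53 before birth (adjusted p = 3.1e-05), and Serpina1e by 2.80 (adjusted p = 1.7e-06). Cyp3a41 rose before birth by 3.03 (adjusted p = 2.7e-05) and at P5 by 1.85 (adjusted p = 0.0052). From E18 to P5, Cyp2b9 rose by 1.87 (adjusted p = 0.0054) and Cyp4a12 by 1.80 (adjusted p = 0.00066). Mup1, Serpina1e and the Cyp2b, Cyp3a and Cyp4a genes have near-identical copies, so their probes may read more than 1 gene.

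**Figure D5:**
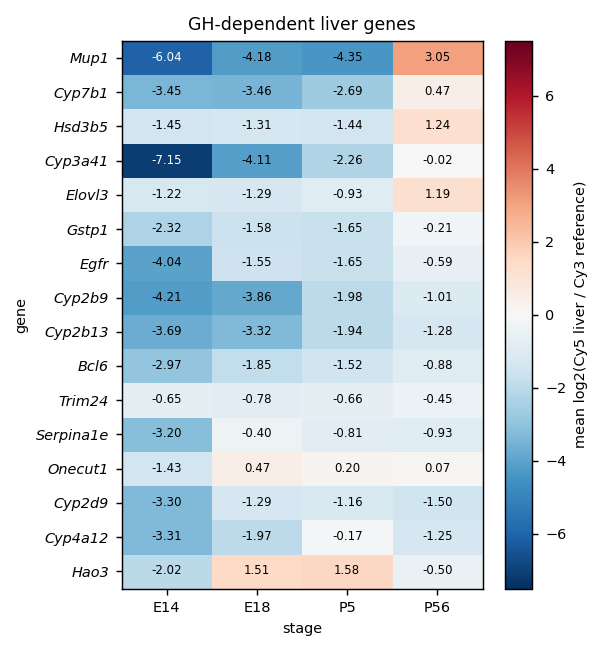
Mean log2 ratio of liver RNA to the adult reference at each stage for 16 of the 17 growth hormone dependent genes tested, ordered from the largest rise to the largest fall between P5 and P56. Mup1 turns from deep blue to a positive value only at P56, while Hao3 is highest at E18 and P5.

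Several genes of this last list differ between male and female mice through the pattern of growth hormone release, and the P56 arrays did not read alike on them. Hsd3b5 read 2.53 on P56 replicate 1 and 0.36 and 0.83 on replicates 2 and 3, Elovl3 read 2.69 against 0.29 and 0.61, and Gstp1 read 1.33 against -1.06 and -0.92. Elovl3 and Gstp1 were picked after their values were seen. Cyp2b9 and Cyp3a41, of the same list, ranged over the P56 arrays from -2.04 to -0.47 and from -0.82 to 0.61. Xist, the RNA of the inactive X chromosome, was not above background on P56 replicate 1 and stood at 4.03 and 5.18 on replicates 2 and 3, and across the course it was above background on 1 of 3, 1 of 3, 2 of 2 and 2 of 3 arrays from E14 to P56. On the same 3 P56 arrays Ghr (0.41, 0.43, 0.43) and Igf1 (0.025, 0.031, 0.22) were close together, whereas Igfbp1 was 1.28, -1.09 and -1.01 and Prlr -0.38, 0.06 and 0.46. The part of sex in these values was not tested.

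Promoter windows of these genes were read from RefSeq (GRCm38.p6) as the 250 bases before a transcript start, and 8 members had 14 such windows. They are given because growth hormone acts through STAT5 sites and insulin through forkhead sites. On either strand, TTCNNNGAA, the core that STAT proteins bind, occurred in 3 of the 14 windows and in 7.02% of all 32851 windows of this length. It lay in 2 of the Igfals windows and 1 of the Prlr windows, and none of the windows of Igf1, Ghr or the Igfbp genes held it. TGTTTTG, the core of the insulin response element, occurred in 1 window, that of Igfbp1, and in 5.56% of all windows. TGTTTAC, a forkhead core, lay in 1 Igfals and 1 Prlr window and in 3.17% of all. Such a match is a description of letters and not a site.
The Igfals window with the start site farthest upstream is chr17:24877594-24877843 on the plus strand, and the Igfbp1 window is chr11:7197537-7197786 on the plus strand. The second Igfals match, at chr17:24878163-24878191, and the Prlr match, at chr15:10223786-10223814, both on the plus strand, are shown with 10 bases on each side. Capitals mark TTCNNNGAA in Igfals and Prlr, and in Igfbp1 TGTTTTG as read on the opposite strand.
Igfals, upstream window: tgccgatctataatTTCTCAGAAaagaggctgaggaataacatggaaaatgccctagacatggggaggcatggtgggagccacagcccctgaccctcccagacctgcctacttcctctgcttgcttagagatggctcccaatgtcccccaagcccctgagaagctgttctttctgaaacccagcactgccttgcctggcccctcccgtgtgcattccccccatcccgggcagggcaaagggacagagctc
Igfals, second match: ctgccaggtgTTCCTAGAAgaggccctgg
Prlr, match: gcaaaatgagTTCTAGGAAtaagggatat
Igfbp1, upstream window: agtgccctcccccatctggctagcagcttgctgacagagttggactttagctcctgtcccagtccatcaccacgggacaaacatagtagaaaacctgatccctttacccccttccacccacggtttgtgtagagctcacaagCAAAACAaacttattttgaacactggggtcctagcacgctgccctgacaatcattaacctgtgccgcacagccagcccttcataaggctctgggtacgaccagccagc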

How the data were processed

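Total RNA was amplified, coupled to Cy5 and hybridised with a Cy3-labelled adult liver reference, per the study's methods, with no dye swap. Scanner files deposited by the authors give every spot's intensity in Cy5 and Cy3, its local background and quality marks, before any normalization. Log2 ratios per gene, normalized and deposited by the authors in a separate table, served only as an alternative. Its columns correlated with their own arrays at r = 0.815 to 0.931 across genes, and those of E14 replicate 1 and P5 replicate 3 a little better with a different replicate of the same stage.

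Here background was corrected by normexp (offset 50) and ratios by loess. Control spots and the scanner's outlier spots (177 to 356 an array) were dropped before averaging over spots. Probes had to pass the scanner's background test in Cy5 throughout 1 stage or more, with no more than 1 value missing in any stage, and genes were read from their brightest probe. Stages were compared in limma 3.58.1 (R 4.3.3), where all 11 arrays shared an estimate of the spread, and p-values were adjusted by Benjamini-Hochberg. Genes without a value on an array (263) were fitted without it. With so few arrays the precision is limited, and p-values measure the spread between these arrays. The fit was tested on simulated data. Alternatives changed the background correction, normalization, filter, probe choice, blocks, test and samples.

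The members and lists were chosen with earlier results of these data known. Genes named are the 9 members, the 3 largest changes per list and comparison among called genes whose arrays did not overlap, and the 3 closest profiles per member. Some genes this rule takes are not reported here. Stat5b, Elovl3, Gstp1, Xist, Afp and the other single hepatoblast markers were named after their values were seen. Names follow the array's annotation, and all 12 accessions of member probes found in the RefSeq table carried the member's symbol there. No protein or Socs2 promoter sequence was used here.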

Additional observations from a re-analysis of the deposited data

How the results depend on the processing

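Under 20 alternatives, 610 member fold changes kept direction and call, 59 lost the call, 3 gained it and 26 changed sign. Scaling arrays to a common spread changed most: for E18 against E14 it called 3225 genes (7908 in the report's fit), 1 member and 9 pathway list genes, for P5 against E18 379 genes (2292), 0 members and 1 list gene, and for P56 against E14 3 members and 22 list genes. It gave Igf1 -1.80, Igfbp1 4.84, Igfbp4 -0.48, Igfals -0.63, Ghr -1.48 and Prlr -0.54 for P5 against E18, and Igfbp4 0.24 for P56 against P5. Median centring called 1474 genes for P5 against E18, with Igfbp1 at 0.24, and gave Igfbp3 -0.33, Igfals -0.37 and Prlr -0.046 for P56 against P5. There the median of all genes was -0.47 (-0.33 for P56 against E14), so that these genes stood 0.14, 0.10 and 0.42 above the median of -0.47. The share of calls that were higher went from 45.7% to 6.84%, and for P56 against E14 from 51% to 22.9%.

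Plain subtraction called 1471 genes for P5 against E18 (65.7% higher, against 53.4%) and gave Igfbp1 0.02, which was 0.0045 with an offset of 16. In the same comparison the scanner's processed signals gave Igfbp1 0.043 and Prlr -0.074, the Cy5 channel alone Prlr -0.040, and the mean over probes Prlr -0.15. The authors' table called 4798 genes (63.9% higher, against 51.9%) and 18 list genes for E18 against E14, 292 genes (72.9% higher), 1 member and 1 list gene for P5 against E18, and 5040 genes, 4 members and 15 list genes for P56 against P5. It gave Igfbp1 0.0031, Igfbp3 0.18, Ghr -0.24, Socs2 -0.60 and Prlr -0.49 for P5 against E18, Igfbp4 0.0031 for P56 against P5 and Igfbp3 0.18 for P56 against E14. Socs2 for P56 against P5 was -0.27 there (adjusted p = 0.79). With the scan as a fixed block, 5328 genes and 6 members were called for E18 against E14, and 4660 genes, 5 members and 15 list genes were called for P56 against P5, with Igfbp4 at 0.019. A random scan block changed no member call.

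The methods' t-test after Benjamini-Hochberg called 61 genes, 1 member and 0 list genes for P5 against E18 and 298 genes, 3 members and 1 list gene for P56 against P5. At its unadjusted threshold it called 3466 and 5575 genes. Fitting only the compared stages called 4995 genes and 16 list genes for P56 against P5. Asking also for a log2 change of at least 1 left 1852 genes, 4 members and 18 list genes for E18 against E14, 450 genes and 1 member for P5 against E18, 2269 genes, 5 members and 14 list genes for P56 against P5, and 4889 genes for P56 against E14. The cause of these shifts was not tested.

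With 1 array left out, genes called ranged from 6488 to 8482 for E18 against E14, from 928 (without P5 replicate 3) to 3765 (without P5 replicate 2) for P5 against E18, from 4741 (without P5 replicate 2) to 8212 for P56 against P5, and from 10875 to 12078 for P56 against E14. Without E18 replicate 2 or 3, 1390 and 1268 genes were called for P5 against E18. List genes called for P56 against P5 ranged from 16 (without P5 replicate 2) to 28. Signs changed for Igfbp4 between P56 and P5 (-0.40 to 0.082) and Prlr between P5 and E18 (-0.091 to 0.28), neither of them called. The fitted Igfbp1 values for P5 against E18, here -0.30 to 0.17 and in the settings above, compare spots that are saturated in both groups and say nothing about a difference. These ranges include an arm of 1 P5 array, assumed to vary like the other groups.

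Replicate numbers did not pair the arrays: 1 of 15 same-numbered pairs had deviations correlated above 0.1 (-0.304 to 0.188). With the replicate block 7535, 1735, 6854 and 11517 genes were called in the 4 comparisons. It changed no member call, and the fitted Igfbp1 value for P5 against E18 was 0.14. Saturation limits Igfbp1 at E18 and P5, and signals near background limit the dim probes of Ghr, Igf1, Igfbp3 and Prlr.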
